A study of Mus musculus with 12 samples.

Results

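The 34 genes described here encode enzymes of glycolysis and proteins of the cell's response to low oxygen. They were chosen by name, as rows of the deposited expression table whose gene symbol is on a list of 34, and all 34 were found among the 27825 genes of that table. RNA-seq had been run on endothelial cells, the cells that line blood vessels, sorted from 2 tissues of mice on 2 diets, with 3 libraries in each of 4 groups. By its title the study asks whether an obesogenic diet makes arterial endothelial cells more alike, so the comparisons set the diets against each other within a tissue, and the tissues against each other within a diet.

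All mice were male and carried ROSA26-eYFP+/+ and Cdh5-CreERT2+, in which a tamoxifen-activated Cre under the endothelial Cdh5 promoter switches on a yellow fluorescent protein. Tamoxifen was mixed into the food of all of them for 2 weeks, starting at an age of 6 weeks. At 8 weeks they were moved to normal chow (5.8% fat) or a high fat diet (60% fat) for 12 to 13 weeks. The groups were mesentery on chow, mesentery on the high fat diet, epididymal fat on chow and epididymal fat on the high fat diet. Each sample combined the tissue of 6 mice, which was digested in the presence of actinomycin D, an inhibitor of transcription, before fluorescent cells were sorted. The protocol speaks of 2 independent replicates while the titles carry 3 letters (A, B and C), so the p-values below measure the spread between these libraries, part of which may be technical.

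Glycolysis splits glucose into pyruvate in the cytosol and yields ATP without oxygen; lactate dehydrogenase then turns pyruvate into lactate and restores the NAD+ that the pathway consumes. Endothelial cells are known to draw much of their ATP from this pathway. When oxygen is short, the prolyl hydroxylases that mark the factors HIF-1α (Hif1a) and HIF-2α (Epas1) for destruction slow down, and the stabilised factors bind short DNA motifs with the core ACGTG or GCGTG near genes for glycolytic enzymes, mitophagy receptors, the vasodilator peptide adrenomedullin and the hydroxylases themselves.

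The libraries held 8348897 to 25397963 reads assigned to genes, and mitochondrial genes took 5.67% to 20.6% of them in mesentery and 2.50% to 5.94% in epididymal fat. Markers of other cells moved with the groups. The summed normalized counts of 9 pancreatic acinar genes were 46349 to 300082 in the mesentery libraries and 0.869 to 107 in the epididymal ones. The 14 macrophage and leukocyte markers summed to 2291 to 32157 in mesentery, 8232 to 100001 in epididymal fat on chow and 166863 to 419140 in epididymal fat of mice on the high fat diet. The 9 adipocyte markers in the table summed to 5199 to 10999 in mesentery, 69724 to 93324 in epididymal fat on chow and 6913 to 18125 on the high fat diet. The 12 pan-endothelial markers summed to 118378 to 182085 in mesentery and 48690 to 106348 in epididymal fat. Of the 12 pan-endothelial markers, 7 were lower in epididymal fat than in mesentery with chow and 8 with the high fat diet, and 1 (Cldn5) was higher with each. Fibroblast markers summed to 5087 to 10958 in mesentery and 20373 to 70017 in epididymal fat. The 10 smooth muscle and pericyte markers summed to 1505 to 4418 in mesentery, 16291 to 26739 in epididymal fat on chow and 6910 to 13506 with the high fat diet, and 8 of them were higher in epididymal fat with chow and 5 with the high fat diet (limma). The 5 red blood cell markers in the table summed to 177 to 432 in mesentery and 31946 to 44022 in epididymal fat, and all 4 that were tested were higher under both diets (limma). No marker of the macrophage, adipocyte, pan-endothelial, fibroblast, smooth muscle and red blood cell lists was at 0 in all 3 libraries of a group. The part that these other cells and the mitochondrial share had in the results below was not tested. In bulk samples, fewer cells of a type and less RNA per cell cannot be told apart.

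**Figure D1:**
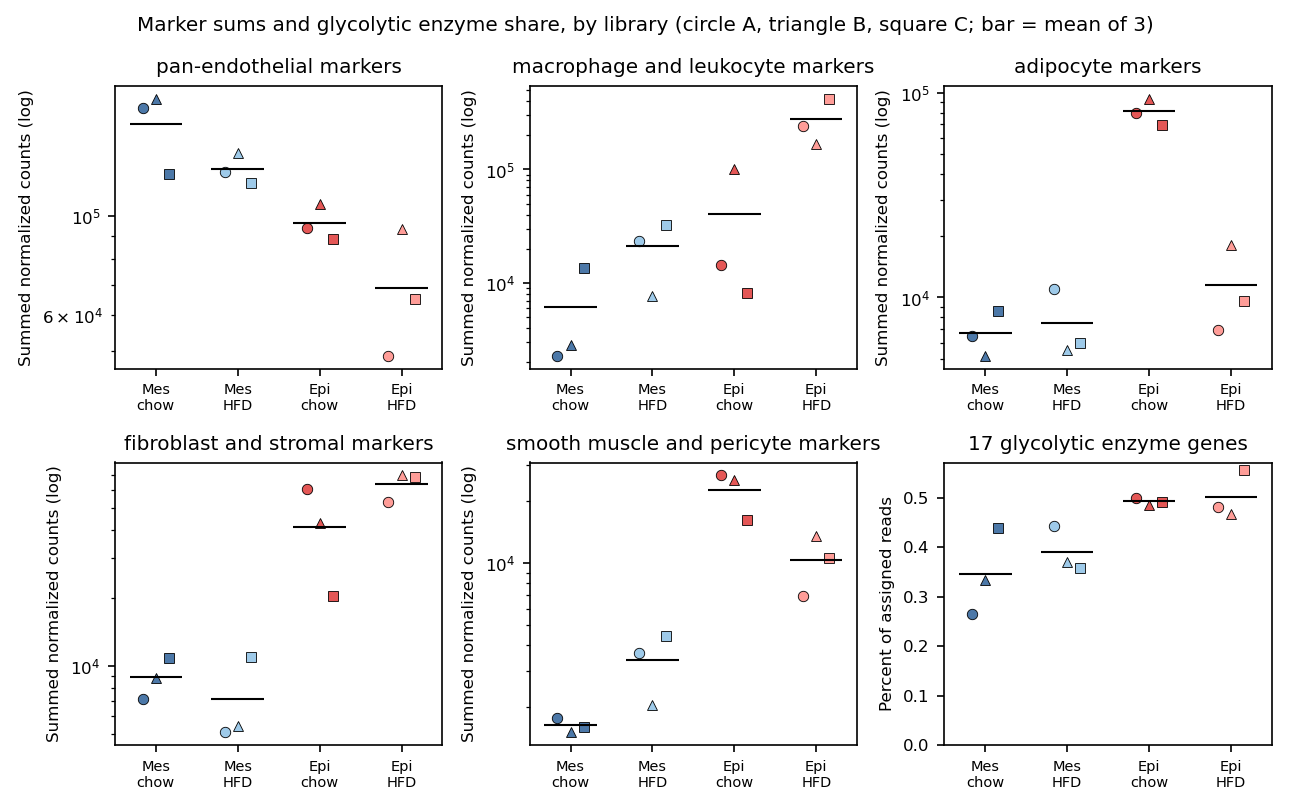
Summed normalized counts of 5 lists of cell type markers (log axes) and the percentage of assigned reads on 17 glycolytic enzyme genes (linear axis from 0), by library in the 4 groups; the bar is the mean of 3 libraries. Adipocyte markers were highest in epididymal fat on chow and macrophage markers in epididymal fat of high fat fed mice. The glycolytic share was 0.493% ± 0.00724 (SD, n = 3) and 0.501% ± 0.0483 (SD, n = 3) in those groups. The part of adipocytes and macrophages in that share was not tested.

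The promoters of several members carry the core motif that HIF factors read. Windows of 250 bases before to 50 bases after the start were available from RefSeq (GRCm38.p6) for 31 of the 34 members. The letters ACGTG or GCGTG, searched on both strands, occurred in 24 of the 31 first windows (77.4%), against 43.8% of the first windows of 27025 genes. The members were chosen by name, partly as genes of the low oxygen response, and the 27025 genes were not matched to them for base composition. The 2 shares are therefore a description and not a test. The E-box CACGTG contains ACGTG, so the searches overlap. A match is a string of letters and not a measured binding site. The 5 windows below are those of the lactate dehydrogenase gene Ldha, which held the most matches, and of 4 members that differed between the tissues; capitals mark each ACGTG or GCGTG match on either strand. Ldha lies on the plus strand at chr7:46845554-46845853, Bnip3 on the minus strand at chr7:138909457-138909756, Adm on the plus strand at chr7:110627407-110627706, Pdk1 on the plus strand at chr2:71872974-71873273 and Tpi1 on the minus strand at chr6:124814109-124814408.
Ldha: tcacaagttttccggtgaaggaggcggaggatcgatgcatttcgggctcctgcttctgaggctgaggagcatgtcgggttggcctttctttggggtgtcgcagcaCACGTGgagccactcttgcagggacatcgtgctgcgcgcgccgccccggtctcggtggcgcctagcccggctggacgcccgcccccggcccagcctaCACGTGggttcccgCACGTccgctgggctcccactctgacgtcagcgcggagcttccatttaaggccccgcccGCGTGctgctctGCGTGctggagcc
Bnip3: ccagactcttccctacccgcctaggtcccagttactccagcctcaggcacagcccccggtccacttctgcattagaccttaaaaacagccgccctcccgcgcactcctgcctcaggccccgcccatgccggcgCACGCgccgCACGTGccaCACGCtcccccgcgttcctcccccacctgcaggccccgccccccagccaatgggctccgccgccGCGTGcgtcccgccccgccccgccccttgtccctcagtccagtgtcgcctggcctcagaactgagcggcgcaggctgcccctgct
Adm: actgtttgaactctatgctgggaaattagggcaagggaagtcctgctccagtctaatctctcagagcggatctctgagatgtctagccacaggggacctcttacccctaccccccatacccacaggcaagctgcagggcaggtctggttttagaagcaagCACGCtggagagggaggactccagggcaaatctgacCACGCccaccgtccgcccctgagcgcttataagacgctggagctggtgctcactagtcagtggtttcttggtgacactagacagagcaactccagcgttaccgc
Pdk1: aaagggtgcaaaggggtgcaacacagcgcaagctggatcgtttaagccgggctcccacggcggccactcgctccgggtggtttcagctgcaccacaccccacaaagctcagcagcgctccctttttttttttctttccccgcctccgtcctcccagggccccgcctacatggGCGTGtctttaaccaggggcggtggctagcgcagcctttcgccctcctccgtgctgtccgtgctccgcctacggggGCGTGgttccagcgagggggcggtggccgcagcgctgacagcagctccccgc
Tpi1: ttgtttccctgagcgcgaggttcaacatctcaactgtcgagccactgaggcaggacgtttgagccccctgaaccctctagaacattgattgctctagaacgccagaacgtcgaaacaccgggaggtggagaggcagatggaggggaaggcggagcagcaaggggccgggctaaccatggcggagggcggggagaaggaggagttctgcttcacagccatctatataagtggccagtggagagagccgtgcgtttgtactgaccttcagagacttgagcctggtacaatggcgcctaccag
The Ldha window held 7 matches counted on both strands, Bnip3 held 5, Adm held 2 and Pdk1 held 2. A CACGTG reads the same on both strands and was counted as 2 matches. Ldha and Bnip3 therefore show fewer marked stretches than matches, and the place of Ldha as the highest rests on this way of counting. The Tpi1 window held none of these letters. Sequence outside the windows was not searched, and the part of HIF factors in the differences below was not tested.

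Levels between genes were compared as normalized counts per kilobase of exon, averaged over the 12 libraries. The aldolase gene Aldoa stood highest among the members at 4873 per kilobase, followed by Ldha at 3104, the glyceraldehyde-3-phosphate dehydrogenase gene Gapdh at 3036 and the enolase gene Eno1 at 1746. Their paralogs were far lower, with 9.30 for Aldoc and 3.93 for Eno2, the lowest member. Counts on near-identical copies elsewhere in the genome were not added to these levels. Such copies summed to 60.7% of the level of Gapdh and 0.416% of that of Ldha, so the order of Aldoa, Ldha and Gapdh depends on them. The entry enzymes stood well below the middle of the pathway, at 97.8 for the hexokinase gene Hk1 and 24.1 for Hk2. Epas1 reached 1006 per kilobase against 103 for Hif1a, so the HIF-2α transcript was the more abundant of the pair in these libraries. As a share of assigned reads, 17 genes for the 11 enzyme steps from hexokinase to lactate dehydrogenase took 0.346% ± 0.0876 in the mesentery of chow-fed mice and 0.391% ± 0.0460 in that of high fat fed mice (SD, n = 3 each), beside the 0.493% and 0.501% of epididymal fat.

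On chow, the libraries of sorted epididymal cells had more transcript of 7 members than those of sorted mesenteric cells and less of 1. The higher members were the glycolytic genes Tpi1 and Pgam1, the lactate dehydrogenase gene Ldhb, the pyruvate dehydrogenase kinase gene Pdk1, the prolyl hydroxylase gene Egln1, the mitophagy receptor gene Bnip3 and Adm. The lower one was Kdm3a, which encodes a histone demethylase. The test was limma on log2(normalized count + 1) with a Benjamini-Hochberg adjusted p under 0.05, which called 12.8% of all 22238 genes tested (7.32% higher and 5.47% lower). The fold changes below are on that log2 scale and understate the change of low genes. The median log2 difference of the 34 members was 0.45, against -0.08 over all genes tested. Of the members, 15 had groups that did not overlap, against 28.7% of all genes.

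Values by library are given below as normalized counts for replicates A, B and C. Tpi1 encodes triosephosphate isomerase, which interconverts the 2 three-carbon sugars that aldolase makes. It stood at 1532, 1608 and 1343 in mesentery on chow and at 3751, 3793 and 3174 in epididymal fat on chow. Every epididymal library lay above every mesentery library, and the difference was 1.26 ± 0.19 (log2, SE; limma, adjusted p = 0.00088). Pgam1, the phosphoglycerate mutase, stood at 1957, 1958 and 1656 in mesentery and at 2970, 2964 and 2334 in epididymal fat. The groups did not overlap, with a difference of 0.56 ± 0.17 (log2, SE; limma, adjusted p = 0.043). A near-identical copy of Pgam1 elsewhere in the genome had a level of 28.3% of its own, so reads may have been split between them.

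Ldhb encodes the lactate dehydrogenase subunit that favours turning lactate back into pyruvate. Its counts in mesentery on chow were 271, 341 and 239, and in epididymal fat on chow 2277, 1407 and 1274. The lowest epididymal library was well above the highest mesentery library, and Ldhb differed by 2.50 ± 0.35 (log2, SE; limma, adjusted p = 0.00051). Pdk1 encodes a kinase that shuts down pyruvate dehydrogenase and so limits the oxidation of pyruvate inside the mitochondria. It gave 183, 235 and 166 in mesentery and 325, 420 and 359 in epididymal fat. These groups did not overlap either, with a difference of 0.92 ± 0.22 (log2, SE; limma, adjusted p = 0.016).

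Among genes of the oxygen response, Adm showed the widest gap of the members that passed. Adrenomedullin, its product, relaxes vessels and tightens the endothelial barrier. Adm counts in mesentery on chow were 61.5, 65.4 and 403, and in epididymal fat on chow 1862, 1911 and 1497. Mesentery replicate C stood apart from the other mesentery libraries but below every epididymal one. It also held the fewest assigned reads of the 12 libraries (8348897). Its acinar markers summed to 46349, against 300082 and 233392 in replicates A and B, and its macrophage markers to 13496, against 2291 and 2845. The part of these traits in its counts was not tested. The Adm difference was 3.88 ± 0.58 (log2, SE; limma, adjusted p = 0.00075), and without mesentery replicate C it was 4.76. Bnip3 encodes an outer mitochondrial membrane protein through which damaged mitochondria are passed to autophagy. Its counts were 424, 543 and 448 in mesentery and 2186, 1974 and 1572 in epididymal fat. All 3 epididymal libraries were higher, by 2.01 ± 0.30 (log2, SE; limma, adjusted p = 0.00073). Near-identical copies of Bnip3 summed to 25.1% of its level over the 12 libraries, so reads may have been split between them. On chow the copies held 233, 52.9 and 624 in mesentery and 261, 167 and 526 in epididymal fat. With their counts added the Bnip3 difference was 1.57 (limma, adjusted p = 0.0012). Bnip3 counts may also include reads of an antisense gene that overlaps 504 of the 2265 Bnip3 exon bases, if strand was not used. Its relative Bnip3l, the NIX receptor, had counts of 3335, 4130 and 3234 in mesentery and 5546, 4923 and 4893 in epididymal fat, groups that did not overlap, with a difference of 0.53 that missed the threshold (limma, adjusted p = 0.083).

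Egln1 encodes PHD2, the main oxygen sensor that hydroxylates HIF-α. It stood at 619, 781 and 604 in mesentery on chow and 1320, 1520 and 1082 in epididymal fat on chow. The epididymal libraries were all higher, by 0.96 ± 0.26 (log2, SE; limma, adjusted p = 0.026). Egln3, which encodes PHD3, was at 5.69, 3.58 and 71.8 in mesentery and 38.4, 39.1 and 52.1 in epididymal fat, where mesentery replicate C exceeded all epididymal libraries. Without that replicate Egln3 passed as higher in epididymal fat (2.98 log2; limma, adjusted p = 0.037), while with it the adjusted p was 0.33. The remaining mesentery chow libraries were close to the detection floor of 3 reads, and the lowest held 4 reads. The hexokinase gene Hk2 was also highest in mesentery replicate C, with 58.1, 46.6 and 332 in mesentery and 158, 160 and 231 in epididymal fat. Without mesentery replicate C the Hk2 difference was 1.77 (limma, adjusted p = 0.0038), and with it 0.89 (adjusted p = 0.38).

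Kdm3a was the member that passed in the other direction. It gave 453, 415 and 428 in mesentery and 262, 258 and 276 in epididymal fat, with tight groups and a difference of -0.70 ± 0.18 (log2, SE; limma, adjusted p = 0.021). After rescaling the columns to the same total the difference was -0.61 and missed the threshold (adjusted p = 0.13). Epas1 was at 9216, 12364 and 4911 in mesentery and 4156, 4525 and 3885 in epididymal fat. Its groups did not overlap and the difference was -0.98 (limma, adjusted p = 0.068). Epas1 passed under 7 alternatives, with differences from -1.35 without mesentery replicate C (adjusted p = 0.0076) to -0.89 after rescaling (adjusted p = 0.040). Hif1a was at 494, 507 and 442 in mesentery and 661, 630 and 483 in epididymal fat, with a difference of 0.29 (limma, adjusted p = 0.49).

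**Figure D2:**
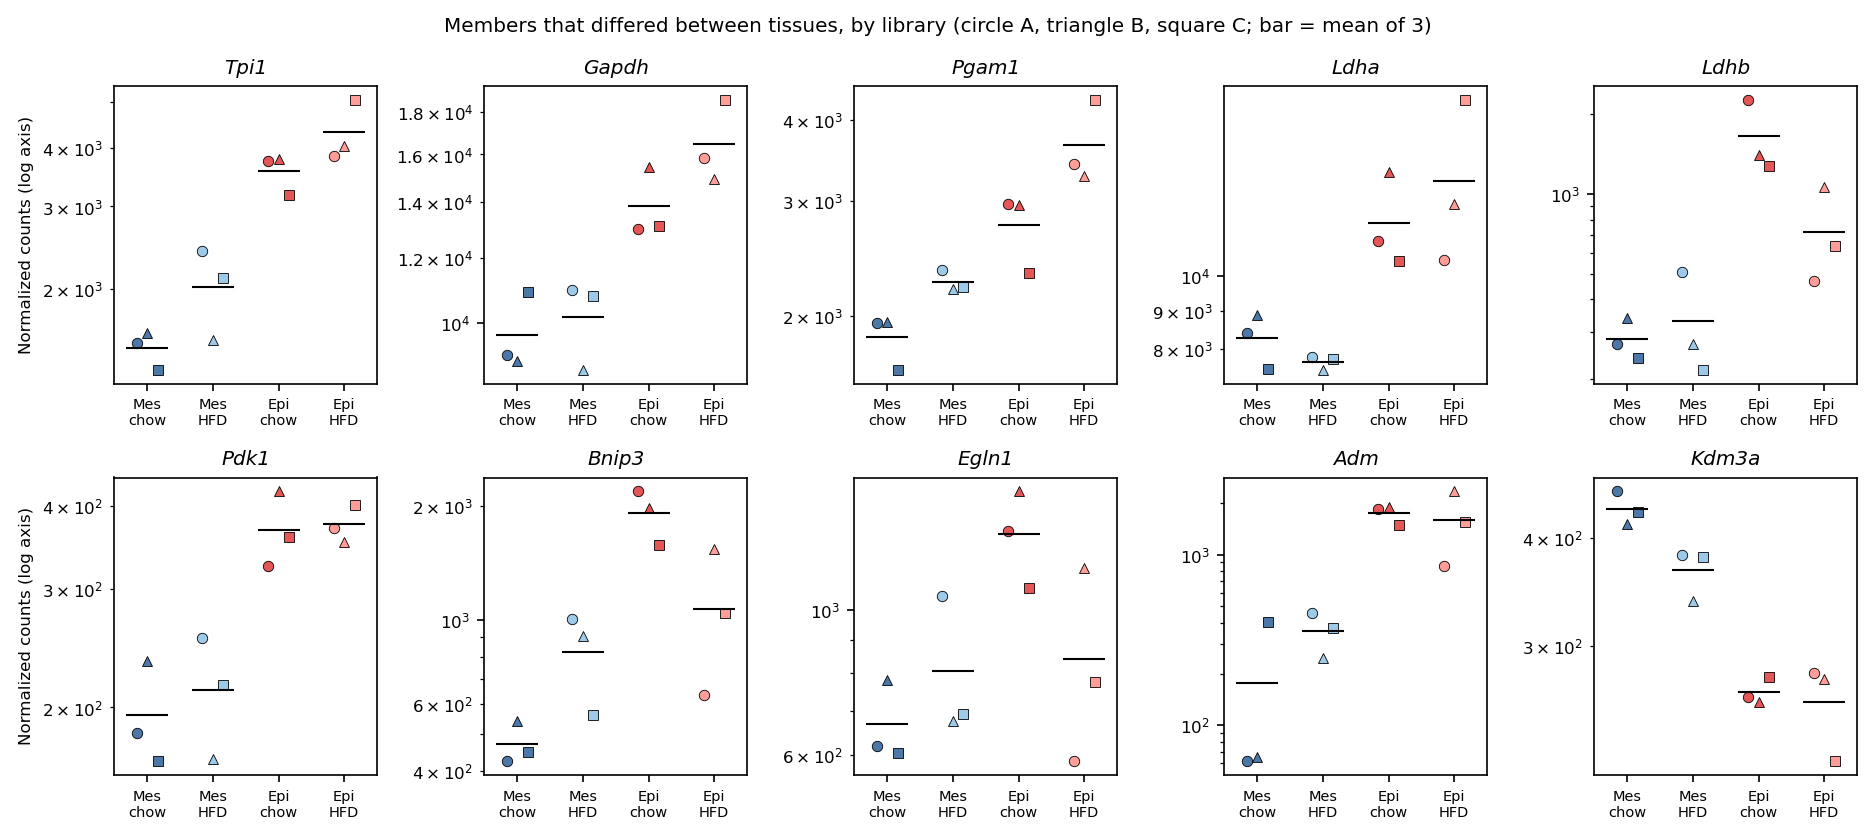
Normalized counts (log axes, each with its own range) of the 10 members that passed the threshold between tissues on either diet, by library in mesentery (Mes) and epididymal fat (Epi) on chow or the high fat diet (HFD); the bar is the mean of 3 libraries. Tpi1, Gapdh, Pgam1, Ldha, Pdk1, Adm and Kdm3a kept apart by tissue on both diets. The epididymal libraries of Bnip3, Egln1 and Ldhb spread down toward mesentery on the high fat diet.

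The sample descriptions carry numbers, 50 to 53 on 8 of the libraries and 87 or 88 on the other 4, and nothing states what they mark. The libraries numbered 87 were replicate C of both tissues on chow, and those numbered 88 were replicate A of both tissues on the high fat diet. With the 8 libraries numbered 50 to 53 alone, 12 members passed as higher (10.2% of all genes) and 3 as lower (9.36% of all genes) on chow, including all 8 named above. Within these, Adm differed by 4.87, Bnip3 by 2.11, Ldhb by 2.55 and Tpi1 by 1.26 on the log2 scale. The libraries numbered 87 and 88 hold 1 sample per tissue and diet and gave no test of their own.

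With all libraries, the number of members past the threshold on chow fell to 4 without mesentery replicate A or epididymal replicate B and to 5 without epididymal replicate A. Tpi1, Ldhb, Bnip3 and Adm passed under all 16 alternatives in this comparison. On the recovered reads edgeR called 6 members (8.92% of all genes) and DESeq2 called 13 (17.9% of all genes), and after rescaling to the same total 9 passed as higher (8.76% of all genes) and 1 as lower (4.26% of all genes).

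On the high fat diet, 6 members were higher in epididymal fat than in mesentery and none passed as lower. They were Tpi1, Gapdh, Pgam1, Ldha, Pdk1 and Adm, of which Tpi1, Pgam1, Pdk1 and Adm had also passed on chow. limma called 8.34% of all genes in this comparison (4.91% higher and 3.43% lower). The median difference of the members was 0.35, against 0.06 over all genes tested, and 17 members had groups that did not overlap, against 26.4% of all genes.

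Tpi1 stood at 2408, 1555 and 2108 in mesentery on the high fat diet and at 3842, 4041 and 5073 in epididymal fat. The tissues did not overlap, with a difference of 1.11 ± 0.19 (log2, SE; limma, adjusted p = 0.0033). Gapdh stood at 10949, 8766 and 10784 in mesentery and at 15858, 14944 and 18653 in epididymal fat. Gapdh differed by 0.70 ± 0.20 (log2, SE; limma, adjusted p = 0.049), and it has 57 near-identical copies in the table that summed to 60.7% of its level; with their counts added the adjusted p was 0.064. Pgam1 gave 2355, 2200 and 2221 in mesentery and 3418, 3282 and 4297 in epididymal fat, without overlap and with a difference of 0.69 ± 0.17 (log2, SE; limma, adjusted p = 0.024).

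Ldha encodes the subunit that favours making lactate. It was even across the mesentery libraries on the high fat diet, at 7815, 7513 and 7760, and higher in epididymal fat at 10507, 12460 and 17108. The difference was 0.77 ± 0.21 (log2, SE; limma, adjusted p = 0.043). On chow the Ldha groups did not overlap either, with 8416, 8895 and 7538 against 11112, 13708 and 10460, and the difference of 0.50 missed the threshold (limma, adjusted p = 0.16). Pdk1 gave 253, 168 and 216 in mesentery on the high fat diet and 370, 353 and 401 in epididymal fat. All epididymal libraries were higher, by 0.83 ± 0.22 (log2, SE; limma, adjusted p = 0.036). Adm gave 455, 247 and 371 in mesentery and 861, 2359 and 1548 in epididymal fat. The groups were apart, with a difference of 2.08 ± 0.58 (log2, SE; limma, adjusted p = 0.043).

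The genes Ldhb, Bnip3, Egln1 and Kdm3a, which passed on chow, did not pass here. Kdm3a was at 382, 338 and 380 in mesentery and 279, 274 and 220 in epididymal fat, groups that stayed apart, with a difference of -0.51 (limma, adjusted p = 0.11); DESeq2 called it (adjusted p = 0.012). Ldhb had 510, 272 and 216 in mesentery against 470, 1062 and 634 in epididymal fat, so 1 epididymal library lay within the mesentery range, and the difference was 1.13 (limma, adjusted p = 0.069). Bnip3 had 1003, 908 and 562 against 634, 1538 and 1043, overlapping groups with a difference of 0.33 (limma, adjusted p = 0.65). Egln1 had 1051, 675 and 693 against 586, 1157 and 776, again overlapping, with a difference of 0.033 (limma, adjusted p = 0.98). In Ldhb, Bnip3 and Egln1 epididymal replicate A was the lowest of its group. Whether the tissue difference itself changed with diet is tested below.

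Epas1 again pointed the other way, with 7524, 6550 and 5041 in mesentery and 2121, 4437 and 2771 in epididymal fat. The groups did not overlap and the difference was -1.08 (limma, adjusted p = 0.060), and Epas1 passed under 6 of 16 alternatives (differences from -0.71 to -1.37 over all 16). Between the same groups the 12 pan-endothelial markers had a median difference of -1.08, and on chow it was -0.96. The part of the endothelial share of the libraries in the Epas1 counts was not tested. The phosphofructokinase gene Pfkl, which encodes the liver-type subunit of the committing step of glycolysis, gave 1116, 1271 and 816 in mesentery and 452, 705 and 658 in epididymal fat, with a difference of -0.82 (limma, adjusted p = 0.076). The enolase gene Eno2 was near the detection floor in mesentery on both diets, with a highest count of 10.2, and at 17.4 to 50.6 in the epididymal libraries. Its differences missed the threshold under both diets (limma, adjusted p = 0.091 each).

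These high fat calls depended on single libraries and on the scaling. The count of members fell from 6 to 1 without mesentery replicate B or C or without epididymal replicate C, and to 3 without mesentery replicate A or epididymal replicate B. Tpi1 passed in each of these and under all 16 alternatives in this comparison, as it had on chow. After rescaling the columns to the same total, Tpi1 was the 1 member that passed as higher, against 3.16% of all genes. Pfkl (-1.01), Epas1 (-1.27), Ndrg1 (-0.66) and P4ha2 (-0.91) then passed as lower, against 5.78% of all genes, and the calls over all genes moved from 1092 higher and 762 lower to 703 higher and 1286 lower. With libraries numbered 50 to 53 alone, 9 members passed as higher (7.02% of all genes) and 0 as lower (4.28% of all genes): the 6 above together with Aldoa, Pkm and Ldhb. On the recovered reads edgeR called 1 member (4.59% of all genes) and DESeq2 called 14 (18.2% of all genes).

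**Figure D3:**
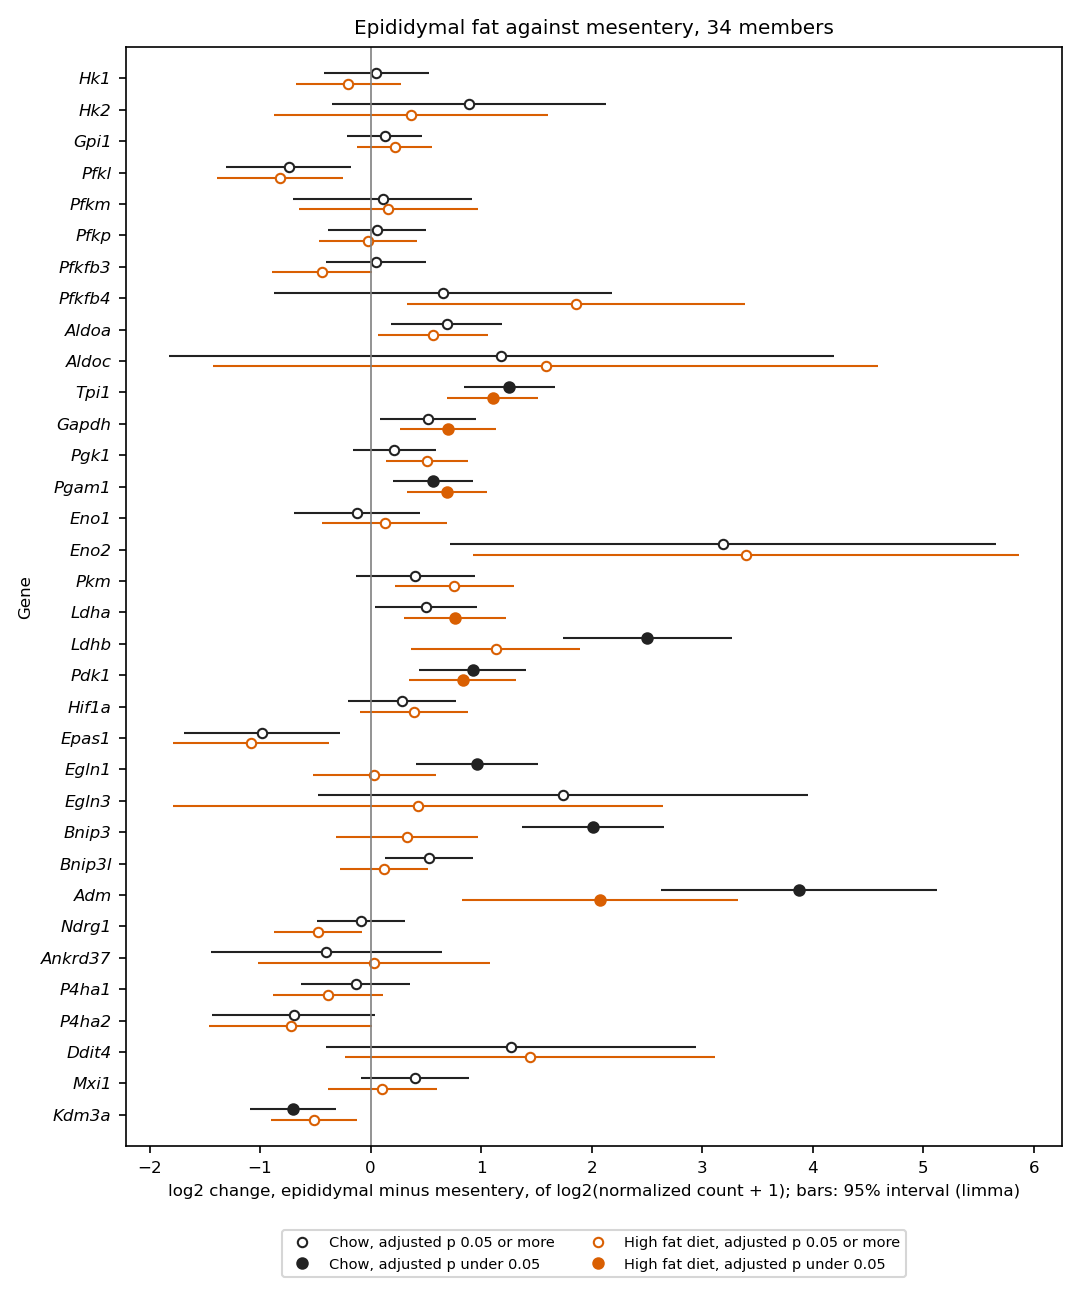
Difference between epididymal fat and mesentery for each of the 34 members under each diet, on the log2(normalized count + 1) scale, with 95% intervals from limma; filled points passed an adjusted p of 0.05. Tpi1, Pgam1, Pdk1 and Adm were filled and right of 0 on both diets, and Epas1 lay left of 0 on both diets without passing.

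The diet changed no member past the threshold in either tissue. In mesentery limma called 0 of 34 members, against 0.0135% of all genes, and edgeR (0.00450% of all genes) and DESeq2 (0.755% of all genes) on the recovered reads also called 0. Unadjusted p-values under 0.05 were found for 4 members, against 6.15% of all genes, and the groups of 5 members did not overlap, against 9.61% of all genes. The 4 were Adm, Bnip3, Tpi1 and Bnip3l, each with a higher mean on the high fat diet. Bnip3 was at 424, 543 and 448 on chow and at 1003, 908 and 562 on the high fat diet, groups that did not overlap, with a difference of 0.77 (95% interval 0.13 to 1.41; limma, adjusted p = 0.72). Adm differed by 1.55 (95% interval 0.30 to 2.80; limma, adjusted p = 0.70), with chow replicate C, at 403, inside the range of the high fat libraries. Without that replicate Adm differed by 2.43 and passed (limma, adjusted p = 0.025), and with libraries numbered 50 to 53 alone it differed by 2.23 and was the 1 member that passed (limma, adjusted p = 0.019), against 0.0899% of all genes.

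In epididymal fat limma called 0 of 34 members, against 0.549% of all genes; edgeR called 0 (0.130% of all genes) and DESeq2 called 1 (4.29% of all genes). Unadjusted p-values under 0.05 were found for 7 members, against 6.94% of all genes, and 9 members had groups that did not overlap, against 13.5% of all genes. Of the 7, Ldhb, Egln1, Bnip3 and Ndrg1 had lower means on the high fat diet and Pgam1, Pkm and Pfkfb4 had higher means. Ldhb was at 2277, 1407 and 1274 on chow and at 470, 1062 and 634 on the high fat diet. Every high fat library was below every chow library, with a difference of -1.23 (95% interval -1.99 to -0.47; limma, adjusted p = 0.20). Bnip3 was at 2186, 1974 and 1572 on chow and at 634, 1538 and 1043 on the high fat diet, without overlap and with a difference of -0.91 (95% interval -1.56 to -0.27; limma, adjusted p = 0.30). Egln1 was at 1320, 1520 and 1082 on chow and 586, 1157 and 776 on the high fat diet, overlapping groups that differed by -0.68 (limma, adjusted p = 0.47).

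The stress response gene Ndrg1 was at 3172, 3771 and 3196 on chow and at 1856, 2739 and 2119 on the high fat diet, without overlap. Its difference was -0.61 ± 0.18 (log2, SE; limma, adjusted p = 0.23), and it was the member that DESeq2 called (adjusted p = 0.023). Pkm, the pyruvate kinase gene, was at 5713, 5449 and 3760 on chow and 6324, 6255 and 10841 on the high fat diet. These groups did not overlap, with a difference of 0.62 (95% interval 0.08 to 1.17; limma, adjusted p = 0.54). Pgam1 gave 2970, 2964 and 2334 on chow and 3418, 3282 and 4297 on the high fat diet, again without overlap, with a difference of 0.41 (limma, adjusted p = 0.57). Pfkfb4, a bifunctional enzyme that sets the level of the glycolysis activator fructose 2,6-bisphosphate, was low throughout, at 113, 93.0 and 18.4 on chow and 257, 102 and 249 on the high fat diet. Its difference of 1.67 (limma, adjusted p = 0.61) was 0.86 without chow replicate C.

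**Figure D4:**
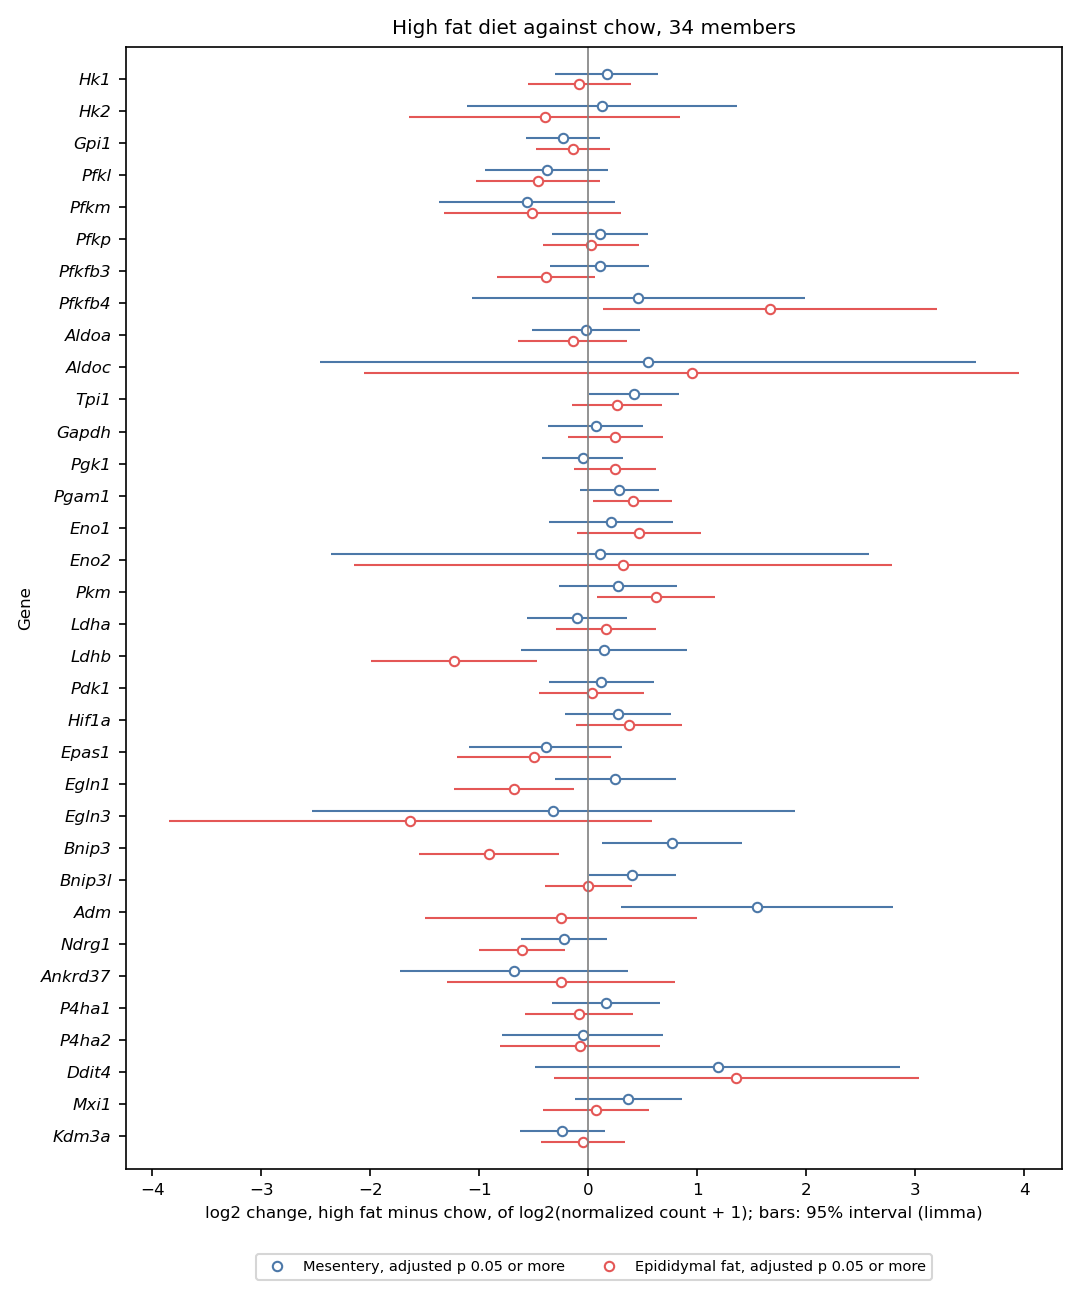
Difference between the high fat diet and chow for each of the 34 members in mesentery and in epididymal fat, on the log2(normalized count + 1) scale, with 95% intervals from limma. All points are open because no member passed an adjusted p of 0.05; the Ldhb, Bnip3, Egln1 and Ndrg1 intervals lay below 0 in epididymal fat, and the Adm and Bnip3 intervals above 0 in mesentery.

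The difference between the 2 diet effects was tested as an interaction, and limma called 0 of 34 members, against 0.00450% of all genes. Unadjusted p-values under 0.05 were found for 4 members, against 4.71% of all genes; edgeR called 0 (0.00450% of all genes) and DESeq2 called 1 (0.809% of all genes). The 4 were Bnip3, Ldhb, Egln1 and Adm, each with the lower diet effect in epididymal fat. Bnip3 had the smallest p, with an interaction of -1.68 ± 0.42 (log2, SE; limma, adjusted p = 0.41), and it was the member that DESeq2 called (-1.63; adjusted p = 0.043). The interaction was -1.37 for Ldhb (limma, adjusted p = 0.87), -0.93 for Egln1 (limma, adjusted p = 0.94) and -1.80 for Adm (limma, adjusted p = 1.00). The loss of the tissue call for Ldhb, Bnip3 and Egln1 on the high fat diet was therefore not shown as a change by limma. Across the 4 groups, Bnip3, Ldhb and Egln1 had their highest mean in epididymal fat on chow, the group with the highest adipocyte and smooth muscle marker sums, and the part of those cells in these counts was not tested.

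The 34 members had a median 95% half-width of 0.52 on the log2 scale in each pairwise comparison and of 0.74 in the interaction. These intervals are not adjusted for the number of genes, and larger differences, such as that of Ldhb for the diet in epididymal fat, also missed the threshold.

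Ratios between related members compare 2 transcripts within a library, so library scaling cancels apart from the pseudocount. For 11 pairs in 4 comparisons, 44 differences were computed, and with 3 libraries against 3 the exact two-sided permutation test cannot go below 0.1, so none could reach 0.05 and no adjustment alters that. The Ldha to Ldhb log2 ratio was 4.95, 4.70 and 4.97 in mesentery on chow and 2.29, 3.28 and 3.04 in epididymal fat on chow. The ratios did not overlap and differed by -2.00 (exact permutation p = 0.1), so Ldhb was a larger share of the pair in epididymal fat. The epididymal ratio on the high fat diet was 4.48, 3.55 and 4.75, above all epididymal chow libraries by a mean of 1.39 (exact permutation p = 0.1) and overlapping the mesentery ratio of 3.94, 4.78 and 5.16.

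The Hif1a to Epas1 log2 ratio was below 0 in every library. It was -4.22, -4.60 and -3.47 in mesentery on chow and -2.65, -2.84 and -3.01 in epididymal fat on chow, a difference of 1.27 without overlap (exact permutation p = 0.1). On the high fat diet it was -3.95, -3.63 and -2.72 in mesentery and -1.79, -2.59 and -1.50 in epididymal fat, a difference of 1.47, again without overlap (exact permutation p = 0.1). The epididymal ratio on the high fat diet lay above that on chow in all libraries, by a mean of 0.87 (exact permutation p = 0.1). By group mean the ratio was highest in epididymal fat of high fat fed mice, followed by epididymal fat on chow, mesentery with the high fat diet and mesentery with chow. Neighbours in this order overlapped except the first 2. The part of the endothelial share of the libraries in this ratio was not tested.

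The Bnip3 to Bnip3l log2 ratio was -2.97, -2.92 and -2.85 in mesentery on chow and -1.34, -1.32 and -1.64 in epididymal fat on chow. It differed by 1.48 without overlap (exact permutation p = 0.1), so on chow the tissue difference was larger for Bnip3 than for Bnip3l in these libraries. On the high fat diet the ratio differed by 0.21 with overlapping groups (exact permutation p = 0.5). Epididymal fat had the lower Pfkl to Pfkp log2 ratio, by -0.80 under chow and by -0.79 under the high fat diet, without overlap on either diet (exact permutation p = 0.1 each). Pfkp itself, the platelet-type subunit, ranged from 1264 to 2083 normalized counts over the 12 libraries. The Pfkfb3 to Pfkfb4 log2 ratio was 1.87, 2.06 and 4.65 in epididymal fat on chow and 0.13, 1.85 and 0.44 on the high fat diet, with a difference of -2.05 (exact permutation p = 0.1). The lowest chow library (1.87) and the highest high fat library (1.85) all but met, and without chow replicate C the difference was -1.16.

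**Figure D5:**
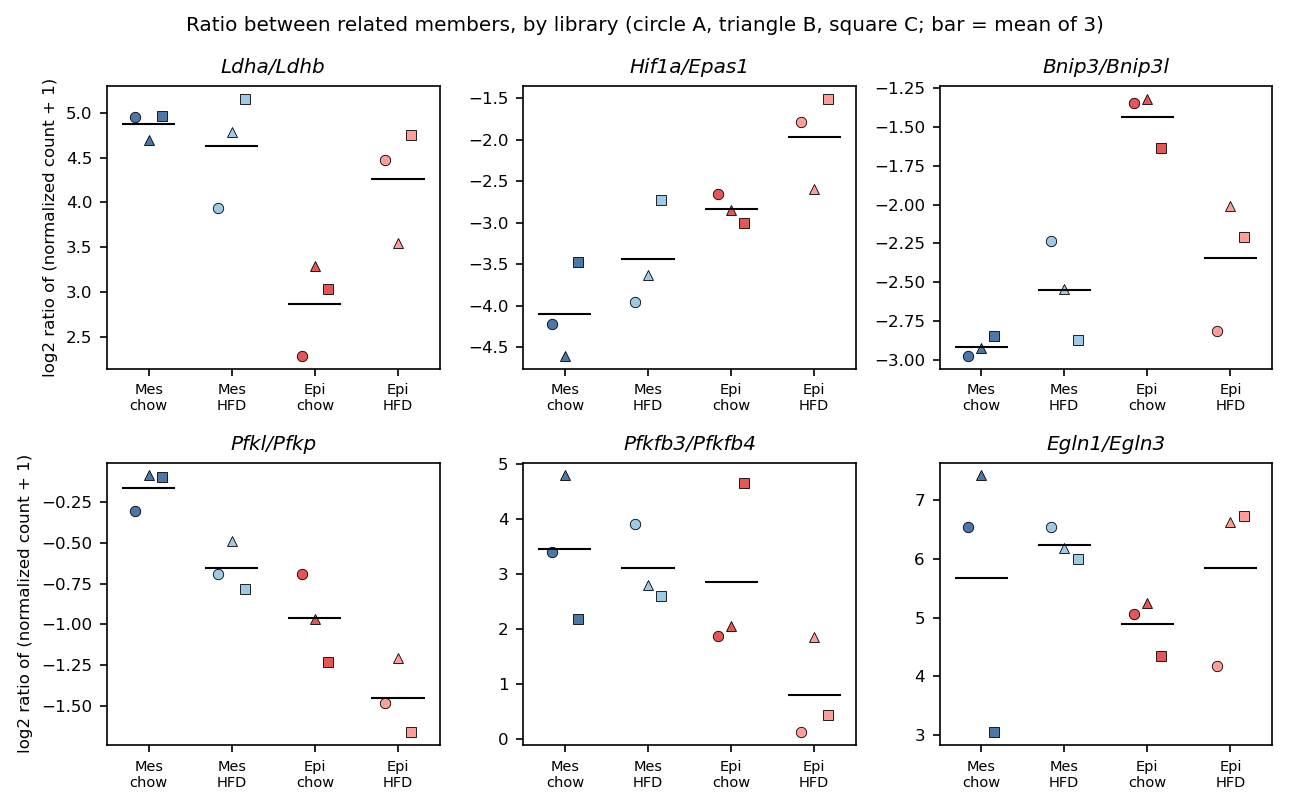
log2 ratio of (normalized count + 1) between 6 pairs of related members, by library in mesentery (Mes) and epididymal fat (Epi) on chow or the high fat diet (HFD); the bar is the mean of 3 libraries. The Ldha/Ldhb ratio was lowest in epididymal fat on chow and the Hif1a/Epas1 ratio was below 0 in all 12 libraries.

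The remaining members passed in none of the 5 comparisons with limma. Hk1, Gpi1, Pfkm, Pfkp, Pfkfb3, Pgk1 and Eno1 lay between -0.44 and 0.51 in both tissue comparisons. Gpi1, the isomerase that follows hexokinase, stood at 2091 to 2553 normalized counts in mesentery on chow and at 2289 to 2533 in epididymal fat on chow. The collagen prolyl hydroxylase genes P4ha1 and P4ha2 differed by -0.14 and -0.70 on chow (limma, adjusted p = 0.78 and 0.23). Without mesentery replicate C, P4ha2 differed by -1.10 and passed (limma, adjusted p = 0.024). Ddit4, an inhibitor of mTORC1 that is induced by stress, was low in all groups, between 3.58 and 100 normalized counts. Ankrd37 ranged from 42.1 to 143 and the Myc antagonist gene Mxi1 from 240 to 470 over the 12 libraries. Aldoc had 0 reads in 1 mesentery library and reached 77.6 in an epididymal one, and its estimates were the least precise.

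Genes next to this pathway were read from 6 further lists. Of 13 genes for pyruvate fate, 5 were higher in epididymal fat on chow and 2 when mice ate the high fat diet, against 7.32% and 4.91% of all genes, with none lower. On chow these were the pyruvate dehydrogenase kinase gene Pdk2 (1.44; limma, adjusted p = 0.0011), the pyruvate carboxylase gene Pcx (1.87; adjusted p = 0.0098), the mitochondrial pyruvate carrier genes Mpc1 (0.82; adjusted p = 0.012) and Mpc2 (1.04; adjusted p = 0.0057), and Pdha1 (0.80; adjusted p = 0.014). On the high fat diet they were Mpc1 and Mpc2, and neither passed after rescaling to the same total. Pcx was also the 1 gene of these 6 lists that passed the test for diet, and it fell by 2.05 on the log2 scale in epididymal fat (limma, adjusted p = 0.049), from a mean of 631 to 155 normalized counts. That call was lost after rescaling (adjusted p = 0.072) and with libraries numbered 50 to 53 alone (adjusted p = 0.077), while DESeq2 called it (adjusted p = 0.0012) and edgeR did not (adjusted p = 0.14). The list's median was 0.66 on chow, against -0.08 over all genes.

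Of 15 genes for the pentose phosphate pathway and glycogen, 5 were higher in epididymal fat on chow and 4 when mice ate the high fat diet, against the same shares of all genes, with none lower. After rescaling, the 4 became 1. The glucose-6-phosphate dehydrogenase gene G6pdx was higher on both (1.20 and 1.33; limma, adjusted p = 0.0059 and 0.0047), as was the muscle glycogen phosphorylase gene Pygm (2.86 and 1.64; limma, adjusted p = 0.00077 and 0.031). The other 2 on the high fat diet were Pgd and Tkt. Of 12 tested genes for other isozymes and regulators, Hk3, Pfkfb1 and Gpd1 passed as higher on chow, and Hk3 was listed at 0 in all mesentery chow libraries. Of 4 tested genes of gluconeogenesis, Pck1 passed on chow, from a mean of 19.7 to 464 normalized counts (limma, adjusted p = 0.0041). Gpd1, Pcx and Pck1 are known for high expression in adipocytes, whose marker sums were highest in epididymal fat on chow, as were the means of these genes. The part of those cells in these counts was not tested.

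Of 15 tested oxygen sensing genes and HIF partners, 1 was higher and 1 lower on chow, against 7.32% and 5.47% of all genes. The transcription regulator gene Cited2 was higher (1.57; limma, adjusted p = 0.0013). The coactivator gene Ep300 was lower (-0.99; limma, adjusted p = 0.040), a call that was lost after rescaling. None of the list passed on the high fat diet. Of 33 tested further hypoxia targets, 5 were higher and 3 lower on chow, and 3 passed in each direction on the high fat diet. Over all genes 7.32% were higher and 5.47% lower on chow, and 4.91% and 3.43% on the high fat diet. The lower genes on both diets were Igfbp3, a binding protein for insulin-like growth factors (-3.33 and -4.05; limma, adjusted p = 0.00012 and 3.4e-05), the VEGF receptor gene Flt1 (-2.10 and -2.17; limma, adjusted p = 0.00049 and 0.00058) and the stanniocalcin gene Stc1 (-2.38 and -1.84; limma, adjusted p = 0.00028 and 0.00275). The higher ones on both were the haem oxygenase gene Hmox1, the collagen crosslinker gene Lox and the cytokine gene Mif.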

How the data were processed

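Bulk RNA-seq of 12 libraries (4 groups of 3) was used. The deposited table holds a signal, read counts per gene that the authors divided by size factors; the submitters' processing notes name STAR 2.7.9a, featureCounts, Subread, DESeq2 1.34.0 and mm39, and the annotation and use of strand are not given in the sources used here. Whole reads were recovered in 100% of values (tolerance 1e-06 reads). limma 3.58.1 was fitted on log2(value + 1) over all groups, with a mean-variance trend, for the 22238 genes with a mean of at least 10; p-values were adjusted by Benjamini-Hochberg within each comparison, and the threshold was 0.05. On the recovered reads, edgeR 4.0.16 called 1, 29, 1984, 1021 and 1 genes for the diet in mesentery, the diet in epididymal fat, the tissues on chow, the tissues on the high fat diet and the interaction, and DESeq2 1.42.0 called 150, 563, 3927, 2931 and 130.

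A member was described by library if it passed in any comparison or was the first enzyme, a paralog of such a member, a HIF factor or a prolyl hydroxylase; others were named after their values were seen. The members and lists were chosen with earlier results of these data known. The scripts were tested on simulated data. Levels per kilobase used GENCODE vM21 exon lengths, and near-identical copies had at least 95% identity over 300 bases (BLAST 2.17.0). The floor of 3 reads equals 2.12 to 4.22 normalized counts and covers counting error only. Alternatives were other pseudocounts, filters and scalings, the count tools, a replicate block, the number range and leaving out each library.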

Additional observations from a re-analysis of the deposited data

How the results depend on the processing

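No member passed in the diet comparisons or the interaction, apart from the exceptions named here. DESeq2 called 1 member for the diet in epididymal fat and 1 in the interaction, and 1 passed for the diet in mesentery with libraries numbered 50 to 53 alone. Between tissues on chow the 8 members became 13 with DESeq2 and 15 with libraries numbered 50 to 53, and on the high fat diet the 6 became 14 with DESeq2 and 1 with edgeR. Leaving out 1 library gave 0 to 1 members for the diet in mesentery, 0 for the diet in epididymal fat and the interaction, 4 to 11 between tissues on chow and 1 to 5 on the high fat diet. With the replicate block, 7 members passed between tissues on chow, 5 on the high fat diet and 0 in the other comparisons; Epas1 was gained as lower on chow (adjusted p = 0.047) and on the high fat diet (0.040), Pgam1 and Kdm3a were lost on chow, and Gapdh and Ldha on the high fat diet. Numbers were shared by the tissues and letters by the diets, but same-numbered libraries deviated together unevenly (r from -0.15 to 0.58), so the block was not used beside the results. On chow each mesentery library correlated best with the epididymal library of its own number, and on the high fat diet not every one did, which is a hint from the data and not the design. Aldoc between tissues on the high fat diet reversed to -0.77 with libraries 50 to 53 and ranged from -0.33, without mesentery replicate A, to 2.60 when 1 library was left out. In the interaction Pfkfb4 reversed to -0.59 with libraries 50 to 53 and Egln3 to 0.074 with DESeq2. The cause of these changes was not tested.

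Over all genes, counts past the threshold also moved by over 1.5 times from 3, 122, 2843, 1854 and 1. Requiring a mean of at least 50 gave 7 for the diet in mesentery and 3 in the interaction, and the block gave 2 in the interaction. Libraries numbered 50 to 53 gave 20 and 31 for the diet in mesentery and epididymal fat, 4349 between tissues with chow and 11 in the interaction. Leaving out 1 library gave 1 to 37 for the diet in mesentery, 23 to 168 in epididymal fat, 1516 to 3278 between tissues on chow, 728 to 1741 on the high fat diet and 1 to 20 in the interaction. Rescaling to the same total moved the median of all genes from 0.06 to -0.12 between tissues on the high fat diet, from -0.08 to 0.0067 on chow, from 0.10 to -0.04 for the diet in epididymal fat and from -0.0023 to 0.13 in mesentery; the higher and lower calls became 1947 and 947 on chow, from 1627 and 1216, and 67 and 38 for the diet in epididymal fat, from 93 and 29. Adding the counts of near-identical copies, chosen after seeing the data, left 5 members between tissues on the high fat diet. Of 396 alternative values of the paralog ratios, 5 moved by more than 1 SD, all with libraries numbered 50 to 53. Leaving out 1 library could not move a difference that far, and rescaling cancels in a ratio apart from the pseudocount. The count of 5 therefore says little about stability.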
